A study of Saccharomyces cerevisiae with 18 samples.

Results

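KV2668 and KV473, 2 strains of *Saccharomyces cerevisiae* of the Sigma1278b background, were compared in liquid medium. The comparison holds the 6 arrays whose titles name these strains and liquid medium, 3 of KV2668 and 3 of KV473, out of 18 arrays in the study. The deposited labels call KV2668 wild type and KV473 a *FLO11* deletion mutant, and name no other allele for either strain. The growth note deposited with the liquid arrays is that of the colonies, 5 days at 30°C on YPS, a rich medium with sucrose, so neither the composition of the liquid medium nor the time in it is known here. The labels do not say whether replicates were separate cultures, and the p-values therefore measure the spread between arrays, which may be technical. Each label was grown in liquid as 1 strain, so that label, strain and any further difference between the strains cannot be told apart. The *FLO11* RNA goes against the labels, being abundant in KV473 and near background in KV2668, and the strains are therefore named by their numbers. Every difference is given as KV2668, labelled wild type, minus KV473, labelled flo11, on the log2 scale.

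*FLO11* encodes a flocculin, a glycoprotein anchored in the cell wall by which yeast cells stick to surfaces, and it is needed for wrinkled colonies in Sigma1278b. Haploid yeast cells have mating type a or alpha, and each type transcribes its own set of pheromone, receptor and agglutinin genes. Mitochondria of yeast keep their own ribosome, whose proteins are almost all encoded in the nucleus, made in the cytosol and imported, and which translates a few core subunits of the respiratory chain. Yeast represses much of its respiratory machinery while it ferments sugar.

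The deposited log2 values come from RMA, a method that subtracts background, brings arrays to a common distribution and joins the signals of a probe set's probes in 1 value. The same array carries probe sets for the fission yeast *Schizosaccharomyces pombe*, and their 95th percentile on an array, 4.46 to 4.56 in liquid medium, served as background. Of 5469 *S. cerevisiae* probe sets, 5357 exceeded it on at least 3 of the 6 arrays and were tested with limma, and 5309 of them exceeded it on all 6. Replicates of a strain correlated at 0.996 to 0.999 across probe sets and arrays of different strains at 0.944 to 0.953. These correlations run over probe sets, which are not independent replicates. The median SD within a strain was 0.0748. Arrays have no read depth, and their number limits the precision.

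KV2668 differed from KV473 by lower RNA of mitochondrial genes, by a switch of the mating-type genes and by higher RNA of genes on chromosome XII. A probe set was called at a limma adjusted p under 0.05, with Benjamini-Hochberg adjustment over all 5357, and an absolute log2 difference over 1. By this rule 244 were higher in KV2668 (4.55%) and 205 lower (3.83%). Without the limit on the difference 1695 were higher (31.6%) and 1454 lower (27.1%). At an unadjusted p under 0.05 (limma), 3382 of the 5357 passed, which is the measure for the unadjusted counts given below. For all 449 called probe sets the 3 KV2668 arrays lay on 1 side of the 3 KV473 arrays, as they did for 66% of all tested. Of the lower probe sets, 134 belonged to a list of mitochondrial genes and 32 to no list.

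*FLO11* had the largest difference apart from 1 gene of alpha-factor. Its log2 values were 13.17, 13.24 and 13.31 on the KV473 arrays and 5.37, 5.34 and 5.26 on the KV2668 arrays. The groups were far apart and the replicates of each nearly equal. The difference was −7.92 (SE 0.057, adjusted p = 8.28e-12, limma), and all 3 KV2668 values still lay above the background. In a list of 38 flocculins and regulators of *FLO11*, 34 were tested, of which 2 were higher and 3 lower. Among all probe sets 4.55% were higher and 3.83% lower. *FLO11* itself is one of the 3 lower.

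The called regulators of this list were 4, and all encode transcription factors or proteins that act with them. *NRG2*, a repressor of glucose-repressed genes and of *FLO11*, had values of 9.89, 9.78 and 9.83 in KV473 and 11.45, 11.61 and 11.51 in KV2668. Its arrays did not overlap, and it was higher in KV2668 by 1.69 (SE 0.059, adjusted p = 2.19e-07, limma). *MIG2*, a repressor that acts with Mig1 under high glucose, had 8.10, 7.99 and 8.31 in KV473 and 6.51, 6.32 and 6.16 in KV2668, a difference of −1.81 (SE 0.11, adjusted p = 1.44e-06). Both repressors went the opposite way in colonies, where *NRG2* was lower in KV2668 by 1.22 on the log2 scale and *MIG2* higher by 1.37, so that the media differed by 2.90 (adjusted p = 1.76e-08) and −3.17 (adjusted p = 1.84e-06). *MGA1*, a gene of the heat shock factor family linked to filamentous growth, was higher by 1.41, with KV473 values spread from 4.81 to 5.63. *SFG1*, a regulator of superficial pseudohyphal growth, differed by −1.20. The classical activator genes *FLO8*, *TEC1* and *STE12* were not called, at 0.17, 0.15 and −0.036.

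KV2668 carried the RNA of a cells and KV473 that of alpha cells. The 7 a-specific genes were each higher in KV2668, with a median of 3.23, and the 5 alpha-specific genes each lower, with a median of −5.88, where 4.55% of all probe sets were higher and 3.83% lower. The mean over the a-specific genes was between 6.11 and 6.20 on the KV473 arrays and between 9.52 and 9.61 on the KV2668 arrays. The mean over the alpha-specific genes was between 11.29 and 11.42 in KV473 and between 5.83 and 5.93 in KV2668. The groups of arrays were thus separated in opposite directions by both lists.

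Of the a-specific genes, *MFA2*, which encodes the a-factor pheromone, had values of 5.15, 5.72 and 5.80 in KV473 and 11.24, 11.32 and 11.30 in KV2668. The difference was 5.73 (SE 0.15, adjusted p = 2.92e-08, limma). The second a-factor gene *MFA1* was higher by 3.23, the alpha-factor receptor gene *STE2* by 4.30 and *AGA2*, which encodes the binding subunit of a-agglutinin, by 4.13. *STE6*, the exporter of a-factor, was higher by 2.83. *HMRA1*, a probe set of the a1 gene, whose sequence the mating locus of a cells shares, was above background on no KV473 array, at 3.29, 3.15 and 3.25, and at 10.17, 9.97 and 9.84 in KV2668. On the deposited values it was higher by 6.76 (adjusted p = 4.55e-10, limma). Measured against the background it was higher by at least 5.45.

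Among the alpha-specific genes the main alpha-factor gene *MF(ALPHA)1* had values of 13.47, 13.53 and 13.55 in KV473 and from 3.78 to 4.52 in KV2668, where 1 of 3 arrays was above background. It differed by −9.42 (SE 0.16, adjusted p = 1.99e-09, limma), and by −9.03 once low values were raised to the background. The second alpha-factor gene *MF(ALPHA)2* differed by −5.88, the a-factor receptor gene *STE3* by −2.93 and the alpha-agglutinin gene *SAG1* by −2.57. The last of the 5 is a probe set of alpha1 sequence held by several loci. *AFB1*, which encodes the a-factor barrier of alpha cells and is not in the list, differed by −2.56 and was 1 of only 2 lower probe sets on chromosome XII, beside the proline oxidase gene *PUT1*.

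Of the genes that both haploid types transcribe, a few were called. Of 30 haploid-specific and pheromone-response genes, 27 were tested, all above background on all 6 arrays, of which 2 were higher and 3 lower, where 8.38% of all probe sets were called. At the adjusted p alone 7 were higher and 6 lower (limma), where 31.6% of all probe sets were higher and 27.1% lower. The subunits of the pheromone receptor's G protein stood at −0.24 (*GPA1*), 0.031 (*STE4*) and −0.21 (*STE18*). The 3 lower genes respond to pheromone. *FUS1*, needed for the fusion of mating cells, had 8.74, 8.92 and 9.12 in KV473 and 6.81, 6.90 and 6.80 in KV2668, and differed by −2.09 (adjusted p = 4.87e-07, limma). *AGA1*, the anchor subunit of a-agglutinin, differed by −1.94 and *FAR1*, which arrests the cell cycle in response to pheromone, by −1.44. Members that were not called went both ways, with *FUS2* at 0.86 and *PRM5* at 0.54 but *PRM3* at −0.52 and *FIG2* at −0.28. The 2 genes called higher, the end-joining gene *NEJ1* at 1.12 and the kinase gene *STE11* at 1.05, lie on chromosome XII.

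**Figure D1:**
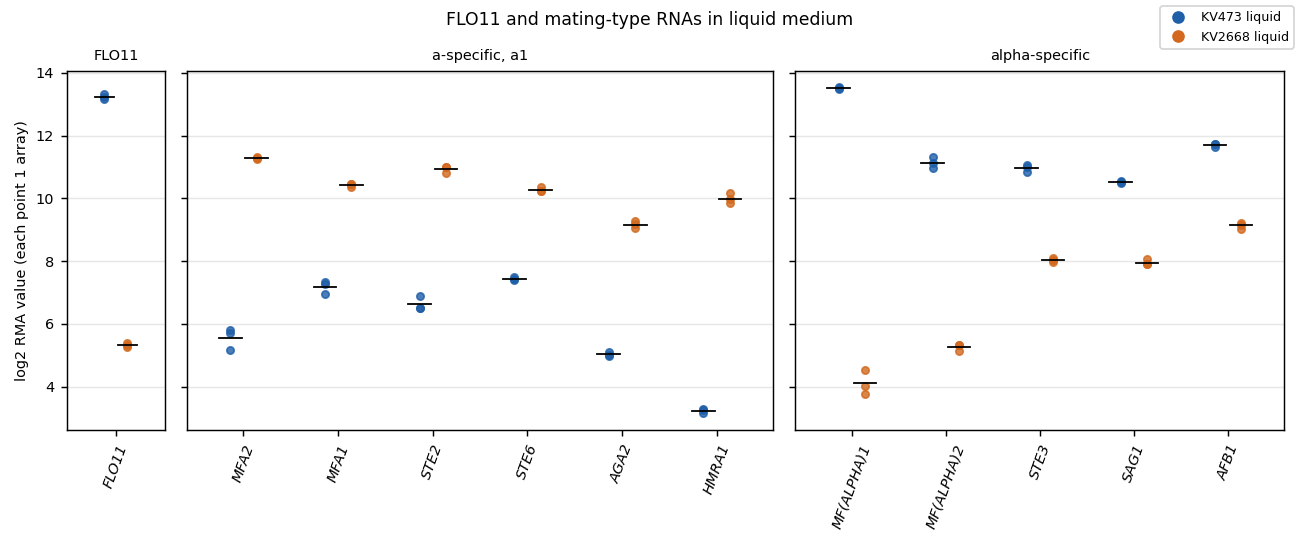
Log2 RMA value of *FLO11*, of a-specific genes with the a1 probe set *HMRA1*, and of alpha-specific genes with *AFB1*, in liquid medium (y axis), where each point is 1 array and each bar the mean of 3. The genes plotted were all called, and their KV473 and KV2668 points do not overlap, as for 66% of all tested probe sets. *FLO11* lies at 13.17 to 13.31 in KV473 against 5.26 to 5.37 in KV2668.

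Genes on chromosome XII were higher in KV2668 along the whole chromosome. The 460 tested probe sets there had a median difference of 0.87, a 1.83-fold higher level, with an interquartile range of 0.54 to 1.08, and 428 (93.0%) had a difference above 0. The medians of the other chromosomes lay between −0.043 and 0.044. Against the mean of KV473, the chromosome's median was 0.880, 0.869 and 0.854 on the 3 KV2668 arrays and −0.0062, −0.019 and 0.031 on the KV473 arrays. The exact two-sided permutation test over the 6 arrays gave p = 0.10, the smallest that 3 against 3 allow. By gene order, 4 equal stretches of the chromosome, of 115 probe sets each, had medians of 0.905, 0.873, 0.893 and 0.854, so that each stretch showed the difference.

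Most of the higher calls lay on this chromosome. On it 158 of 460 probe sets were higher (34.3%) and 2 lower (0.435%), while on the other chromosomes 86 of 4897 were higher (1.76%) and 203 lower (4.15%). Chromosome XII thus held 64.8% of all higher probe sets. In colonies of the same strains its median was 0.81, and the median difference between the media was 0.022. Members were not all alike. The 18 probe sets of cytosolic ribosomal proteins on the chromosome had a median of 0.25 with 0 called higher (limma, 15 at an unadjusted p under 0.05), and the 21 members of the mitochondrial lists one of −0.052 with 1 called higher. Members on this chromosome are therefore named as such in the lists below.

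**Figure D2:**
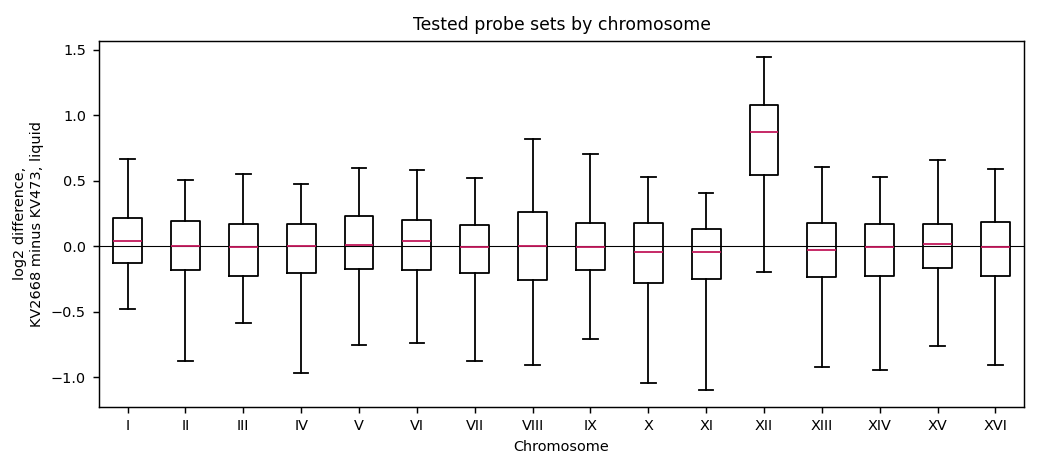
Log2 difference, KV2668 minus KV473 in liquid medium (y axis), of the tested probe sets of each chromosome (x axis). Boxes span the quartiles, lines mark the medians and whiskers the 5th and 95th percentiles. Chromosome XII has a median of 0.87, and the other 15 medians lie between −0.043 and 0.044.

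Of the genes lower in KV2668, those of the mitochondrial ribosome formed the largest group. All 77 genes of the list were tested, 43 of the large and 34 of the small subunit, and 56 (72.7%) were lower, where 3.83% of all probe sets were. None was higher (limma, 0 at an unadjusted p under 0.05). The median difference was −1.13, a 2.19-fold lower level, and 76 passed the adjusted p with a difference below 0. The exception was *PPE1*, a methylesterase gene also listed as a small subunit protein, at −0.027 (adjusted p = 0.814, limma). The differences ran from −1.54 to −0.39 in the large subunit, where the smallest differences were those of *MRPL15* and *MRPL4*, the 2 members on chromosome XII.

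In the large subunit, *MNP1*, needed for respiration, had values of 12.01, 11.93 and 12.06 in KV473 and 10.67, 10.35 and 10.37 in KV2668. It differed by −1.54 (SE 0.089, adjusted p = 1.41e-06, limma), as did *MRPL19* by −1.54 and *MRPL44* by −1.52. In the small subunit, *MRPS8* had 11.34, 11.27 and 11.34 in KV473 and 9.90, 9.56 and 9.49 in KV2668, and differed by −1.67 (SE 0.098, adjusted p = 1.60e-06). *MRP21* differed by −1.46 and *RSM27* by −1.43. The mean over the 77 genes was 11.35, 11.32 and 11.38 on the KV473 arrays and 10.44, 10.14 and 10.17 on the KV2668 arrays. KV2668 array 1 thus lay nearest to KV473.

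Some factors that serve this ribosome were lower too. Of 48 genes of mitochondrial translation factors and tRNA charging, 47 were tested, of which 15 were lower and 0 higher (limma, 1 higher at an unadjusted p under 0.05), with a median of −0.79. Of all probe sets 3.83% were lower and 4.55% higher. *IFM1*, the initiation factor, had 9.15, 9.24 and 9.10 in KV473 and 7.77, 7.37 and 7.53 in KV2668, and differed by −1.61 (SE 0.096, adjusted p = 1.67e-06). Its arrays were separated by more than a whole unit. The release factor gene *MRF1* differed by −1.54, the tyrosyl-tRNA synthetase gene *MSY1* by −1.53 and the tRNA modification gene *MTO1* by −1.44. Of the proteins of the cytosolic ribosome, by contrast, 122 genes were tested on 142 probe sets with a median of −0.025. Among these, 1 was lower, *RPL8A* at −1.01, and 0 were higher (limma, 17 at an unadjusted p under 0.05). The call of *RPL8A* was lost, at −0.98 and −0.99, without KV2668 replicate 3 or KV473 replicate 3, and at −0.95 with chromosomes centred.

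Many genes that build the respiratory chain were lower. Of 45 assembly factors, 26 were lower and 1 was higher, where 3.83% of all probe sets were lower and 4.55% higher. Their median was −1.07, beside −0.61 for the subunits of the chain. The higher one was *COX19* on chromosome XII. *COA2*, an assembly factor of cytochrome c oxidase, had 11.25, 11.05 and 11.18 in KV473 and 9.40, 8.75 and 8.94 in KV2668. It differed by −2.13 (SE 0.15, adjusted p = 3.56e-06, limma), a 4.38-fold lower level, and KV2668 array 1 was its highest KV2668 array. *PET100* and *CMC2*, also needed for cytochrome c oxidase, differed by −1.79 and −1.74, and *COX23*, a protein of the intermembrane space, by −1.66.

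Of 28 subunits of complexes II to IV, alternative NADH dehydrogenases and cytochromes c, 8 were lower and 0 higher (limma, 4 higher at an unadjusted p under 0.05), with a median of −0.61. The share of all probe sets that were lower was 3.83%. *NDI1*, the internal NADH dehydrogenase that stands in for complex I in this yeast, had 12.16, 12.20 and 12.20 in KV473 and 10.59, 10.10 and 10.15 in KV2668, and differed by −1.91 (SE 0.12, adjusted p = 1.90e-06). *SDH1*, the flavoprotein of succinate dehydrogenase, had 12.82, 12.89 and 12.96 against 11.37, 11.12 and 11.03, a difference of −1.71. The membrane anchor genes *SDH3* and *SDH4* of the same complex differed by −1.49 and −1.33, and *QCR6* of complex III by −1.35. None of the 17 ATP synthase genes was called (limma, 1 higher and 14 lower at an unadjusted p under 0.05), and their median was −0.24. In the citric acid cycle 3 of 24 tested genes were lower, where 3.83% of all probe sets were. All 3 were the succinate dehydrogenase genes just named, and the list had a median of −0.25. The 8 genes encoded in mitochondrial DNA were not analysed here.

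Genes of cofactor synthesis and protein import were lower as well. Of 35 genes of iron-sulphur cluster, haem and lipoate synthesis, 14 were lower and 0 higher (limma, 5 higher at an unadjusted p under 0.05), with a median of −0.75. The share of all probe sets that were lower was 3.83%. *BIO2*, biotin synthase and itself an iron-sulphur enzyme, had 10.12, 9.99 and 10.15 in KV473 and 8.69, 8.21 and 8.25 in KV2668, and differed by −1.70 (SE 0.12, adjusted p = 3.85e-06). *BOL3*, which helps to insert clusters, differed by −1.86, the lipoyl synthase gene *LIP5* by −1.70 and the frataxin gene *YFH1* by −1.51. Of 47 genes of mitochondrial import and folding, 16 were lower, where 3.83% of all probe sets were, and 0 higher (limma, 2 higher at an unadjusted p under 0.05). The list had a median of −0.81. Its lower members included *TOM6* and *TOM7* of the outer membrane translocase, at −1.49 and −1.26, the intermembrane chaperone gene *TIM8* at −1.28 and *PNT1* at −1.33. *CCP1*, the mitochondrial cytochrome c peroxidase, had 11.82, 11.85 and 11.95 in KV473 and 9.92, 9.41 and 9.50 in KV2668, and its difference of −2.27 (SE 0.12, adjusted p = 9.65e-07, limma) was larger than that of any gene in the mitochondrial lists.

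Of 17 genes of haem-activator and oxygen regulators, 1 was lower and 1 higher, where 8.38% of all probe sets were called. *HAP5*, a subunit of the Hap2/3/4/5 complex that activates respiratory genes, differed by −1.01. That call was lost at −0.95 to −0.97 without KV2668 replicate 2 or 3 or KV473 replicate 3, and at −0.95 with chromosomes centred. *HAP1*, the haem-dependent activator, was higher by 1.14 and lies on chromosome XII. *HAP4*, which carries the activating domain of the complex, stood at −0.19, and *PUF3*, whose product binds mRNAs of mitochondrial proteins and which lies on chromosome XII, at 0.041. Neither was called. At the adjusted p alone 6 of the 17 were lower and 3 higher (limma), where 27.1% of all probe sets were lower and 31.6% higher. The lower ones included *HAP3* and *HAP2* of the same complex at −0.73 and −0.34. They also included the activators of genes for non-fermented carbon sources *ADR1* and *CAT8*, at −0.73 and −0.53. The higher ones beside *HAP1* were *SIP4* at 0.56 and *MGA2* at 0.18.

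**Figure D3:**
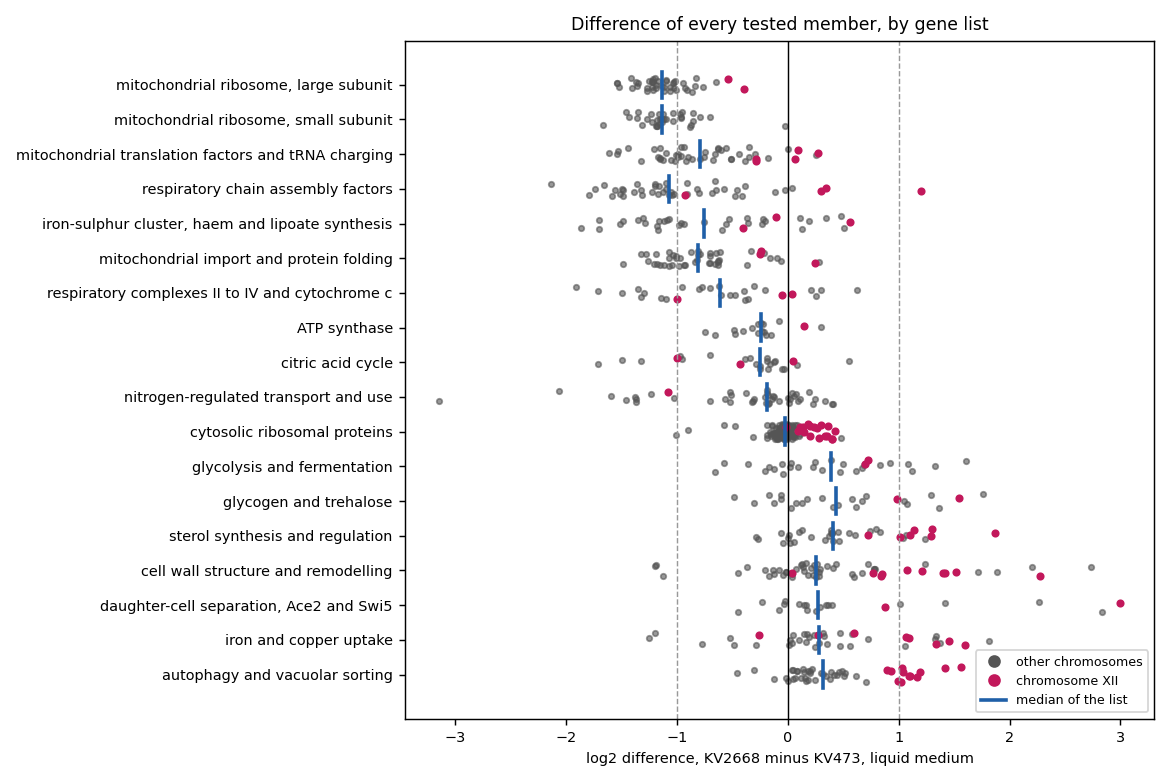
Log2 difference, KV2668 minus KV473 in liquid medium (x axis), of every tested member of 18 gene lists (y axis). Each point is 1 probe set, points on chromosome XII are red, and bars mark list medians, which run from −1.14 for the large subunit of the mitochondrial ribosome to 0.43 for glycogen and trehalose.

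For many mitochondrial genes the strains differed more in liquid medium than in colonies, by a limma test of the difference between media on the 12 arrays of these strains. In colonies 0 of the 77 mitochondrial ribosomal genes were lower (limma, 19 of the large and 20 of the small subunit at an unadjusted p under 0.05), with a median of −0.23, where 1.62% of all probe sets were lower and 4.35% higher. The difference between the strains was itself lower in liquid medium for 32 of the 77, where 4.24% of all probe sets were. The mean over the 77 genes was 10.70, 10.70 and 10.79 on the KV473 colony arrays and 10.63, 10.49 and 10.55 on the KV2668 colony arrays. The colony arrays of both strains therefore lay between the liquid arrays of KV473, at 11.32 or more, and those of KV2668, at 10.44 or less.

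In the other mitochondrial lists the media differed, toward lower in liquid, for 15 of the 47 translation factors, 17 of the 45 assembly factors, 5 of the 35 cofactor genes, 7 of the 47 import genes and 5 of the 28 respiratory subunits. The change of *COA2* in liquid was −2.15 beyond that in colonies (SE 0.18, adjusted p = 9.48e-07, limma), and that of *CCP1* was −2.47 (SE 0.15, adjusted p = 1.06e-07). In colonies these genes stood at 0.023 and 0.20. Over all probe sets, 79 were higher and 20 lower in KV2668 in both media. Of the 205 lower in liquid, 99 were also called lower by the test between media, beside 4.24% of all probe sets. Of the 244 higher ones, 54 were called higher, beside 2.78%. The test between media contains the liquid difference by which these probe sets were chosen, so that an excess over all probe sets is built in.

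**Figure D4:**
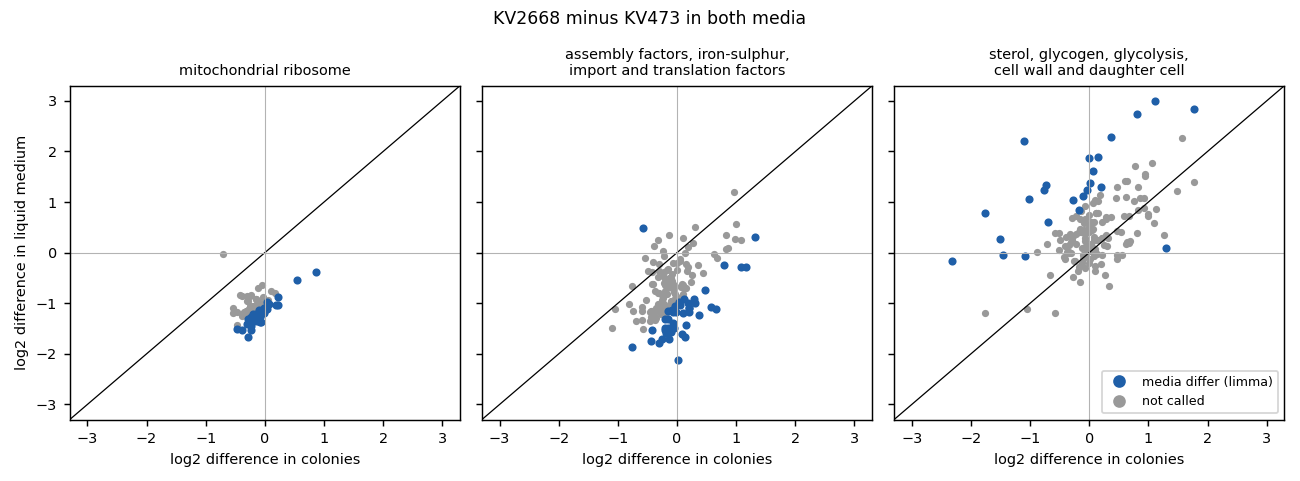
Log2 difference between KV2668 and KV473 in liquid medium (y axis) against the same difference in colonies (x axis), for the members of 3 sets of gene lists. Each point is 1 probe set, blue where the media differed by limma's test, and the diagonal marks equal differences. The mitochondrial ribosomal genes lie below the diagonal, with medians of −1.13 in liquid medium and −0.23 in colonies, except for *PPE1* above it.

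Some genes of sugar use were higher in KV2668. Of 29 tested genes of glycolysis and fermentation, 4 were higher and 0 lower (limma, 5 lower at an unadjusted p under 0.05), with a median of 0.39, beside 0.021 for all probe sets. The share of all probe sets that were higher was 4.55%. *CDC19*, the main pyruvate kinase, had 11.07, 11.30 and 11.32 in KV473 and 12.74, 12.95 and 12.83 in KV2668. It was higher by 1.61 (SE 0.082, adjusted p = 8.36e-07), with no overlap between the strains, and in colonies stood at 0.063. The phosphoglycerate mutase gene *GPM1* was higher by 1.12, its homologue *GPM2* by 1.33 and the invertase gene *SUC2*, whose product splits sucrose, by 1.08.

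Of 24 genes of glycogen and trehalose, 6 were higher and 0 lower (limma, 3 lower at an unadjusted p under 0.05), where 4.55% of all probe sets were higher. Of the 6, 5 lie outside chromosome XII, where 1.76% of all probe sets were higher. *GPH1*, glycogen phosphorylase, had 8.55, 8.42 and 8.61 in KV473 and 9.63, 10.09 and 9.95 in KV2668, and was higher by 1.37 (SE 0.11, adjusted p = 8.66e-06). The sporulation glucoamylase gene *SGA1* was higher by 1.76, the phosphoglucomutase gene *PGM2* by 1.29 and the glycogen synthase gene *GSY2*, on chromosome XII, by 1.55. The genes that rose thus act in both the synthesis and the breakdown of glycogen.

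Glycine and nitrogen genes held some of the largest differences in single genes. Of 22 genes for glycine, serine and 1-carbon metabolism 3 were lower, where 3.83% of all probe sets were. These 3 encode subunits of the glycine cleavage system. *GCV2*, its decarboxylase, had 12.11, 12.11 and 12.11 in KV473 and 8.84, 9.16 and 9.10 in KV2668. It differed by −3.08 (SE 0.08, adjusted p = 2.99e-08, limma), an 8.45-fold lower level with almost no spread in KV473. *GCV1* differed by −1.85 and *GCV3* by −1.34. The serine and threonine deaminase gene *CHA1* went the other way, from 9.23, 8.83 and 9.12 in KV473 to 11.65, 12.04 and 12.04 in KV2668, higher by 2.85 (SE 0.13, adjusted p = 5.58e-07). In colonies *CHA1* stood at 0.043, and the media differed by 2.81 (adjusted p = 3.99e-08).

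Of 44 tested nitrogen-regulated genes, 10 were lower and 0 higher (limma, 6 higher at an unadjusted p under 0.05), with a median of −0.19. The share of all probe sets that were lower was 3.83%. *PTR2*, the transporter of di- and tripeptides, had 11.25, 11.15 and 11.22 in KV473 and 7.88, 8.07 and 8.25 in KV2668, and differed by −3.14 (SE 0.088, adjusted p = 5.24e-08). *GLT1*, glutamate synthase, had 10.68, 10.68 and 10.83 and 8.93, 8.55 and 8.52, a difference of −2.06. Both genes were separated between the strains by far more than the spread within either. *UGA2*, which breaks down 4-aminobutyrate, differed by −1.59 and the methionine permease gene *MUP1* by −1.46. The difference in *GLT1* was not seen in colonies, at −0.041, and the media differed by −2.02 (adjusted p = 2.13e-07).

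Of 42 tested genes of amino acid synthesis, 4 were lower, where 3.83% of all probe sets were, and 2 were higher, with a median of −0.26. At the adjusted p alone 26 were lower and 5 higher (limma), where 27.1% of all probe sets were lower and 31.6% higher. *LEU1*, the iron-sulphur isomerase of leucine synthesis, had 10.37, 10.35 and 10.22 in KV473 and 8.59, 8.53 and 8.47 in KV2668, and differed by −1.78 (SE 0.059, adjusted p = 1.70e-07, limma). Its difference in colonies was 0.21. *LYS4*, homoaconitase, an iron-sulphur enzyme of mitochondria, differed by −1.12 and the purine gene *ADE17* by −1.17. *LEU3*, the regulator of the leucine genes, was higher by 1.30 and lies on chromosome XII.

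Some genes that daughter cells transcribe to separate from their mothers were higher in KV2668. Of 20 tested genes of daughter-cell separation, 5 were higher and 0 lower (limma, 2 lower at an unadjusted p under 0.05), where 4.55% of all probe sets were higher. Of the 5, 4 lie outside chromosome XII, where 1.76% of all probe sets were higher. *CTS1*, the chitinase that cuts the septum, lies on that chromosome and had 8.22, 8.06 and 8.19 in KV473 and 10.94, 11.36 and 11.16 in KV2668. It was higher by 3.00 (SE 0.1, adjusted p = 1.70e-07), and by 2.17 with each chromosome's median removed. *DSE1* had 5.68, 5.63 and 5.53 in KV473 and 8.11, 8.63 and 8.60 in KV2668, higher by 2.84 (SE 0.13, adjusted p = 5.58e-07). *DSE2* and *SCW11*, which encode glucanases of the daughter wall, were higher by 2.27 and 1.42, and *DSE4* by 1.01. *DSE1*, *DSE2* and *CTS1* were higher in colonies too, by 1.77, 1.58 and 1.11. The genes of the regulators *SWI5* and *ASH1* stood at 0.18 and −0.075.

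Of 56 tested cell wall genes, 11 were higher and 3 lower, where 4.55% of all probe sets were higher and 3.83% lower. Of the 11, 5 lie outside chromosome XII. *HPF1*, a glucan-bound mannoprotein, had 8.86, 8.62 and 9.37 in KV473 and 11.48, 11.93 and 11.65 in KV2668, higher by 2.74 (SE 0.18, adjusted p = 2.99e-06, limma). *TIR3*, a mannoprotein of anaerobic cells, had 8.15, 8.18 and 8.33 and 10.18, 10.58 and 10.52, higher by 2.20 (SE 0.10, adjusted p = 6.16e-07). The groups of arrays were separate for both genes. In colonies *TIR3* was lower in KV2668, at −1.11 (adjusted p = 5.67e-05), so that the media differed by 3.31 (adjusted p = 2.42e-07), the largest such value among the genes named here. *PIR3*, a wall protein bound to glucan through its repeats, was higher by 1.89, and *CRR1*, a transglycosidase of the spore wall on chromosome XII, by 2.28. When all 18 arrays of the study shared 1 estimate of the spread, *TIR3* no longer passed the adjusted p.

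**Figure D5:**
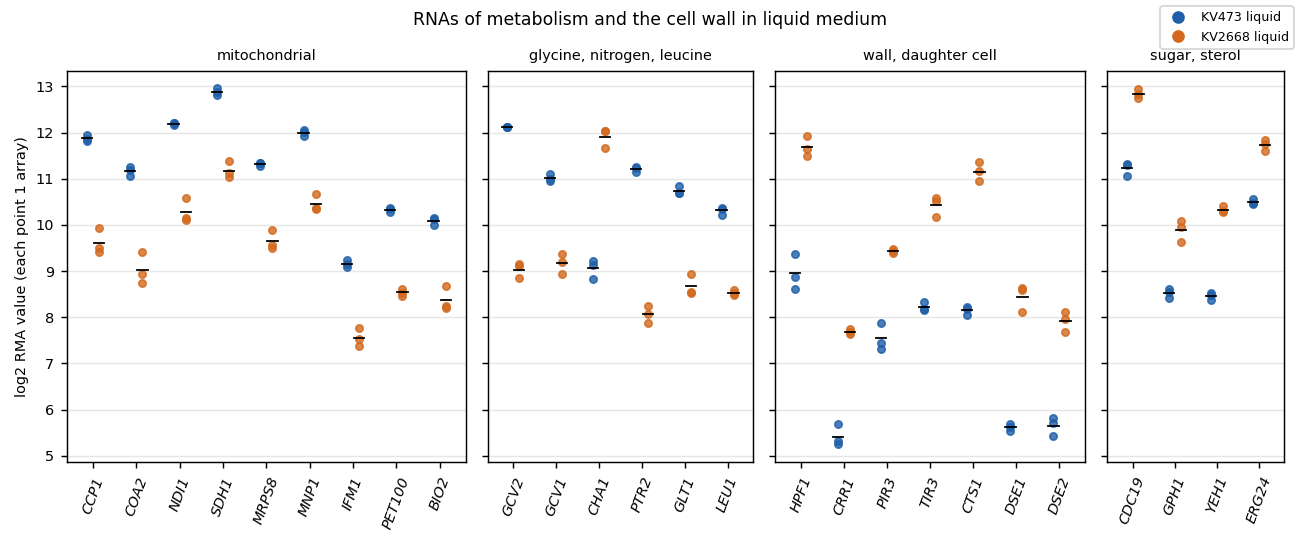
Log2 RMA value in liquid medium (y axis) of genes of the mitochondria, of glycine, nitrogen and leucine metabolism, of the wall and daughter cell, and of sugar and sterol metabolism, where each point is 1 array and each bar the mean of 3. The genes plotted were all called, and the strains do not overlap for any of them, as for 66% of all tested probe sets. Among the mitochondrial genes the highest KV2668 point is replicate 1, 11.37 for *SDH1* against 11.03 and 11.12.

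Sterol genes higher in KV2668 lay mostly on chromosome XII. Of 35 genes of sterol synthesis and its regulation, 9 were higher, where 4.55% of all probe sets were, and 0 lower (limma, 2 lower at an unadjusted p under 0.05). The list had a median of 0.41. Chromosome XII held 6 of the 9, and the 28 members elsewhere had a median of 0.39 with 3 higher, beside 1.76% of all probe sets there. *YEH1*, a steryl ester hydrolase on that chromosome, had 8.38, 8.47 and 8.53 in KV473 and 10.30, 10.40 and 10.29 in KV2668, higher by 1.87 (SE 0.059, adjusted p = 1.23e-07). *ERG24*, the sterol C-14 reductase, lies elsewhere and had 10.48, 10.45 and 10.55 and 11.61, 11.84 and 11.75, higher by 1.24 (SE 0.067, adjusted p = 1.03e-06). Both were separate between the strains and stood at −0.0035 and −0.032 in colonies. *ECM22*, a regulator of sterol genes, and *ERG27*, the 3-keto reductase, were higher by 1.30 and 1.29 and lie on chromosome XII.

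Of 39 genes of iron and copper uptake, 10 were higher and 2 lower, where 4.55% of all probe sets were higher and 3.83% lower. Of the 10, 5 lie outside chromosome XII. *FET4*, a low-affinity transporter of ferrous iron, had 6.81, 6.69 and 6.59 in KV473 and 8.40, 8.54 and 8.58 in KV2668, higher by 1.81 (SE 0.073, adjusted p = 4.05e-07, limma), with the strains well apart. *FRE4*, a siderophore reductase, was higher by 1.38. *TIS11*, which degrades mRNAs of iron-using proteins when iron is scarce, and the vacuolar reductase gene *FRE6* were higher by 1.60 and 1.46 and lie on chromosome XII. The iron regulator genes *AFT1* and *AFT2* were not called, at 0.15 and 0.56, and neither was the high-affinity oxidase gene *FET3*, at 0.47.

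The counts of the remaining lists stand beside 4.55% of all probe sets higher and 3.83% lower. Those of the zinc, phosphate and stress genes were small and were not tested against these shares. Of 14 tested zinc genes the transporter gene *ZRT2* on chromosome XII was higher, by 1.14, and of 24 phosphate genes the sodium-phosphate cotransporter gene *PHO89* was lower, at −1.53, while *PHM8* and *SPL2* were higher, by 1.27 and 1.01. The call of *SPL2* was lost, at 0.87 and 0.97, without KV2668 replicate 1 or KV473 replicate 3. All 9 higher genes among 47 of autophagy and vacuolar sorting lie on chromosome XII, among them *ATG23* at 1.56 and *VPS38* at 1.42. None of the 35 members elsewhere was called, where 1.76% of probe sets off that chromosome were higher and 4.15% lower. At an unadjusted p under 0.05 (limma) 20 of the 35 passed, where 3382 of all 5357 probe sets did. Of 53 probe sets of stress and redox defence, 4 were higher, led by the NADPH oxidoreductase gene *OYE2* at 1.52 and the peroxiredoxin gene *AHP1*, on chromosome XII, at 1.38, and 3 were lower, *CCP1*, the glutaredoxin gene *GRX4* with a 2.84-fold lower level and the peroxisomal catalase gene *CTA1* at −1.27. The meiosis and sporulation list of 36 genes, 32 of them tested, had 7 higher and 2 lower, *RIM4* at −1.29 and *SPS4* at −1.05. Of the 7 higher members 4 lie on chromosome XII, among them *OSW2*, *GAS2* and *CRR1*, which act in the spore wall, at 2.03, 1.52 and 2.28. The 3 elsewhere were *SGA1* at 1.76, *MEI4* at 1.40 and *MPC54* at 1.35. Of 6 strain marker genes tested, such as *URA3* at 0.009 and *HIS3* at −0.32, none was called, where 8.38% of all probe sets were. At an unadjusted p under 0.05 (limma) 4 of the 6 passed, where 3382 of all 5357 probe sets did.

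Beside the genes already named, 2 others were among the 12 with the largest higher differences. *YNL146C-A*, of unknown function, had 4.40, 4.45 and 4.56 in KV473, where 1 array was above background, and 7.99, 7.79 and 7.89 in KV2668, higher by 3.42 (SE 0.069, adjusted p = 6.66e-09, limma) and by 3.33 once low values were raised to the background. *AQY2*, an aquaporin gene on chromosome XII, had 6.80, 6.92 and 6.32 and 9.03, 9.12 and 9.36, higher by 2.49 (SE 0.15, adjusted p = 1.70e-06). Both were higher in colonies as well, by 3.38 and 2.09.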

How the data were processed

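RNA was measured on Affymetrix Yeast Genome 2.0 arrays, and the authors deposited log2 values from RMA (version not given in the sources used here), which were used unchanged. Arrays were grouped by the strain and medium in their titles, and 0 columns were left unassigned. Genes came from the platform annotation, where 6145 of 7686 probe sets have 1 symbol, 1 has several and 1540 have none, with 12 symbols updated through the RefSeq gene table of assembly R64, which also gave chromosomes and gene order.

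The 6 liquid arrays were fitted by limma 3.58.1 (lmFit, eBayes) under R 4.3.3, without covariates and with 4 residual degrees of freedom, and the difference between media with 12 arrays in 4 groups. The script was tested on simulated data. Thresholds follow the study's methods. Named genes are *FLO11*, up to 4 called members of each list with the largest differences, every called regulator, and the 12 genes most higher and the 12 most lower among those called, without probe sets of several genes. Any other gene was named after its values were seen. Members and lists were chosen with earlier results of these data known.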

Additional observations from a re-analysis of the deposited data

Results flagged for a closer look

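The following genes had a difference between KV2668 and KV473 that itself differed between liquid medium and colonies, by limma's test of the difference between media (adjusted p under 0.05, log2 value beyond 1 in either direction). Values are the strain difference in liquid medium minus that in colonies. Negative values were called for 4.24% of all tested probe sets and positive ones for 2.78%.

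Among regulators *MIG2* had −3.17, *NRG2* 2.90 and *HAP5* −1.11. In the mitochondrial ribosome *MRPS8* had −1.39, *MRPL19* −1.30, *MRP21* −1.23, *RSM24* −1.18, *MNP1* −1.15, *MRPL20* −1.11 and *MRPL44* −1.04. Of the factors that serve it, *IFM1* had −1.69, *MTO1* −1.58, *MSY1* −1.32 and *MRF1* −1.12. In the respiratory chain and its assembly *COA2* had −2.15, *COX23* −1.79, *NDI1* −1.52, *PET100* −1.49, *CMC2* −1.29, *SDH1* −1.14 and *SDH4* −1.03. The peroxidase gene *CCP1* had −2.47, and of cofactor and import genes *BIO2* had −1.57, *LIP5* −1.44, *BOL3* −1.11 and *TOM6* −1.28. All of these mitochondrial genes were lower in KV2668 in liquid medium. They were named for their large differences there, so that the shared direction is not a separate result.

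In glycine, nitrogen and amino acid metabolism *PTR2* had −2.20, *GLT1* −2.02, *LEU1* −1.99, *GCV2* −1.94, *MUP1* −1.76, *UGA2* −1.59 and *GCV1* −1.27. The synthesis genes *LYS4* and *ADE17* had −1.24 and −1.16, and the deaminase gene *CHA1* had 2.81, opposite in sign to the others. The phosphate gene *PHO89* had −2.09 and *PHM8* 1.08.

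In sugar and glycogen use *GPM2* had 2.07, *CDC19* 1.55, *GPH1* 1.35, *GPM1* 1.22 and *PGM2* 1.09. Of glycolysis and fermentation genes not called in liquid medium, *ADH4* had 2.14, *PDC6* 1.31 and *HXK2*, the main hexokinase, −1.20. Of wall and daughter-cell genes *TIR3* had 3.31, *HPF1* 1.93, *CRR1* 1.91, *CTS1* 1.89, *PIR3* 1.75 and *DSE1* 1.07. Of sterol, iron, redox and sorting genes *YEH1* had 1.87, *FRE4* 1.58, *FET4* 1.56, *OYE2* 1.41, *ERG24* 1.27 and *VPS38* 1.00.

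The mating-type genes kept their direction in both media, and of the 12 a-specific and alpha-specific genes 6 differed between media by this test. The a-specific genes *STE2*, *MFA2* and *STE6* had 1.64, 1.41 and 1.04. The alpha-specific genes *MF(ALPHA)2* and *SAG1* had 1.32 and 1.19, being less far apart in liquid medium, and *MF(ALPHA)1* had −1.72. *AFB1*, outside both lists, had −1.47.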

How the results depend on the processing

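Leaving out single arrays gave 239 to 257 higher and 188 to 241 lower probe sets. Lower counts then ran from 26 to 35 in the large and 22 to 27 in the small mitochondrial ribosomal subunit, 24 to 27 for assembly factors, 12 to 19 for translation factors, 14 to 16 for cofactor synthesis, 13 to 19 for import, 7 to 10 for respiratory complexes and 9 to 10 for nitrogen. Higher counts ran from 5 to 7 for glycogen, 4 to 5 for daughter-cell separation, 8 to 9 for sterol, 9 to 10 for iron and copper and 8 to 9 for autophagy, and stayed at 11 for the cell wall. The chromosome XII median ran from 0.865 to 0.881, and was 0.936 with arrays centred on the other chromosomes.

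With each chromosome centred on its median, 104 probe sets were higher, with 4 for sterol, 6 for the wall, 5 for iron and copper and 0 for autophagy (limma). Without chromosome XII the counts were 86, 3, 5, 5 and 0. Of the 35 autophagy members outside chromosome XII, 20 had an unadjusted p under 0.05 (limma), as had 3382 of all 5357 probe sets. At the adjusted p alone 1695 of all 5357 were higher (31.6%) and 1454 lower (27.1%). The lower counts were then 27 for cofactor synthesis, 43 for import, 42 for translation factors, 22 for respiratory complexes and 23 for nitrogen. The higher counts were 15 for glycogen, 25 for sterol, 11 for daughter-cell separation, 35 for the wall, 24 for iron and copper and 28 for autophagy. Under the other alternatives all of these counts stayed within 1.5 times the reported ones: 12 or 18 arrays, other filters and backgrounds, values floored at the background, centred arrays, an intensity trend, and no probe sets of shared sequence.

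No named gene changed direction under any alternative run. Of 104 named genes, 17 missed the limit on the difference with chromosomes centred, among them *HAP5* and *RPL8A* at −0.95 each and otherwise genes on chromosome XII. *TIR3* missed the adjusted p with all 18 arrays. *SPL2* fell to 0.87 without KV2668 replicate 1 and 0.97 without KV473 replicate 3, *HAP5* stood at −0.96, −0.95 and −0.97 without KV2668 replicate 2 or 3 or KV473 replicate 3, and *RPL8A* at −0.98 and −0.99 without KV2668 replicate 3 or KV473 replicate 3.

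Replicate numbers did not pair the arrays. Deviations of same-numbered KV473 and KV2668 arrays correlated at 0.127, 0.0017 and −0.041, and the replicate number as a block gave 244 higher and 205 lower probe sets, with all 104 named genes called. No depth applies to arrays, and 11 tested probe sets were under background on all arrays of 1 strain.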

Other observations

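The 32 lower probe sets in no list included further genes of mitochondrial proteins, named here after their values were seen. *CIR2*, a likely ubiquinone oxidoreductase, had 10.97, 10.91 and 11.06 in KV473 and 9.46, 9.05 and 9.04 in KV2668, a difference of −1.79 (SE 0.11, adjusted p = 1.72e-06, limma). *MAM33*, an acidic matrix protein needed for respiration, had 12.24, 12.24 and 12.32 and 10.78, 10.48 and 10.37, a difference of −1.72 (adjusted p = 1.19e-06). In both genes the strains were well apart and KV2668 array 1 lay highest of its strain. *NUC1*, the mitochondrial nuclease, differed by −1.28, *FLX1*, a carrier of flavin adenine dinucleotide, by −1.13, *MIC27*, a subunit of the complex that shapes the inner membrane, by −1.10 and *ADK2*, the mitochondrial adenylate kinase, by −1.03. *STL1*, the glycerol symporter of the plasma membrane, differed by −1.83.

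Outside chromosome XII, 43 higher probe sets were in no list. Among them, also named after their values were seen, *IMA1*, an isomaltase, had 6.57, 6.53 and 6.33 in KV473 and 8.38, 8.76 and 8.61 in KV2668, higher by 2.11 (SE 0.10, adjusted p = 6.71e-07, limma). *PLB2*, a phospholipase B, was higher by 2.02 and *SOL4*, a 6-phosphogluconolactonase, by 1.64. The polyamine exporter gene *TPO2* was higher by 1.55 and the nicotinamidase gene *PNC1* by 1.21. None of the arrays of these 5 genes overlapped between the strains, as for all called probe sets.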
